A study of Mus musculus with 4 samples.

Results

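Pax7 binding was examined around 5 genes that encode the machinery of chromatin architecture, Ctcf, Rad21, Smc3, Nipbl and Stag1. A Pax7 peak was assigned to a gene when its summit lay inside the gene or within 100 kb of either end in the GENCODE annotation of NCBIM37 (mm9). These windows held 29 of the 20579 deposited Pax7 peaks, of which 3 fell to Ctcf, 7 to Rad21, 9 to Smc3, 3 to Nipbl and 7 to Stag1. The highest was found 9.41 kb upstream of Rad21, a subunit of the cohesin ring, with 17.1-fold enrichment over the local background. Smc3 had the most peaks in its window, but 8 of the 9 were nearer to the start of a neighbouring coding gene, whether a start was taken as the 5′ end of a gene or as any annotated transcript start. The remaining peak was nearest to Rbm20 by the first definition and to Smc3 by the second. The 5′ end of the gene is used below unless stated.

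The cells were iPax7 muscle progenitors, derived from mouse embryonic stem cells in which doxycycline (Dox) drives a single inducible Pax7 cDNA placed next to Hprt. Dox at 1 µg/ml was added on day 3 of embryoid body differentiation in serum, PDGFRα+FLK1- cells were sorted on day 5, and chromatin was collected on day 9, after 6 days of Dox. The 2 Pax7 ChIP libraries and the 2 input libraries all came from this single Dox-treated state, so the data hold no untreated cells and no cells after Dox withdrawal. The peaks were called on the merged ChIP libraries against the merged inputs. For this reason no peak value has a replicate error, peaks are compared here only by their place in the list, and the list gives neither read depth nor expression. The identity of the sorted cells could therefore not be checked against marker genes.

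CTCF is a zinc finger protein that binds DNA in a sequence-specific manner and holds up loop extrusion at domain boundaries. Cohesin is the ring that extrudes the loops. Smc3 and Smc1a form its long arms, Rad21 closes the ring, Stag1 or Stag2 joins through Rad21 and helps the complex stay on chromatin, and Nipbl, together with Mau2, loads cohesin and drives its motor. Pax7, the factor measured here, is a paired-box and homeodomain protein that marks muscle stem cells. The question was where Pax7 lay around the genes for this machinery, not where CTCF or cohesin were bound.

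The sequence at selected peaks is given first, since the motif content described afterwards refers to it. These peaks were picked by height, position or motif, and not all of them are among the strongest. Each run covers 101 bp centred on the summit, on the plus strand of NCBIM37. In the first set, capitals mark the paired-box core GTCACG or its variant TTCACG on either strand. It shows the strongest Rad21 peak, the peak at the Rad21 promoter, the peak downstream of Smc3 with the core on both sides of its summit, and the outermost Ctcf peak.
Rad21, 9.41 kb upstream (chr15:51832666-51832766): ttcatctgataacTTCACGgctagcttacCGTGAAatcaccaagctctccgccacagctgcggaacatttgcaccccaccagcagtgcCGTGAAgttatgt
Rad21, promoter (chr15:51823491-51823591): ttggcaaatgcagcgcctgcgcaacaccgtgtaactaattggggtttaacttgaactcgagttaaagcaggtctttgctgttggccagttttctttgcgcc
Smc3, 4.30 kb past the gene end (chr19:53724573-53724673): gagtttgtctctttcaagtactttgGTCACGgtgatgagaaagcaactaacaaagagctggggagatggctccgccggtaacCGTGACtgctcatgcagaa
Ctcf, 42.5 kb upstream (chr8:108117883-108117983): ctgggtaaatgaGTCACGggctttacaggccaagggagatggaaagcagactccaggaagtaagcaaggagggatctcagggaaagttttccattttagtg

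In the second set, capitals mark the E-box CAGCTG, the sequence read by MyoD and other myogenic basic helix-loop-helix factors. It shows the strongest peak of the Ctcf window and the strongest of the Smc3 window, neither of which carried the paired-box core.
Ctcf, 14.1 kb upstream (chr8:108146360-108146460): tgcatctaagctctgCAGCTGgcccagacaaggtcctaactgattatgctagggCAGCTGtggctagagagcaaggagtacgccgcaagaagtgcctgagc
Smc3 window, inside Rbm20 (chr19:53785744-53785844): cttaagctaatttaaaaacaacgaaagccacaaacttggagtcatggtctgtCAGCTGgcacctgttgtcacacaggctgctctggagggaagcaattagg

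In the third set, capitals mark coding sequence. It shows the pair of peaks with summits in coding exons of Nipbl and Stag1 themselves.
Nipbl, exon 12 (chr15:8288847-8288947): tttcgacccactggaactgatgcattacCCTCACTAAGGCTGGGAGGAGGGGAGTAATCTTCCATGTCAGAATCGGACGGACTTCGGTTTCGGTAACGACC
Stag1, exon 30 (chr9:100852046-100852146): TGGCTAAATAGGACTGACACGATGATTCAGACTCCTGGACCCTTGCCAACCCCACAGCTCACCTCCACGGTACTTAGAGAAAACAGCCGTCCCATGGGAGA

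**Figure D1:**
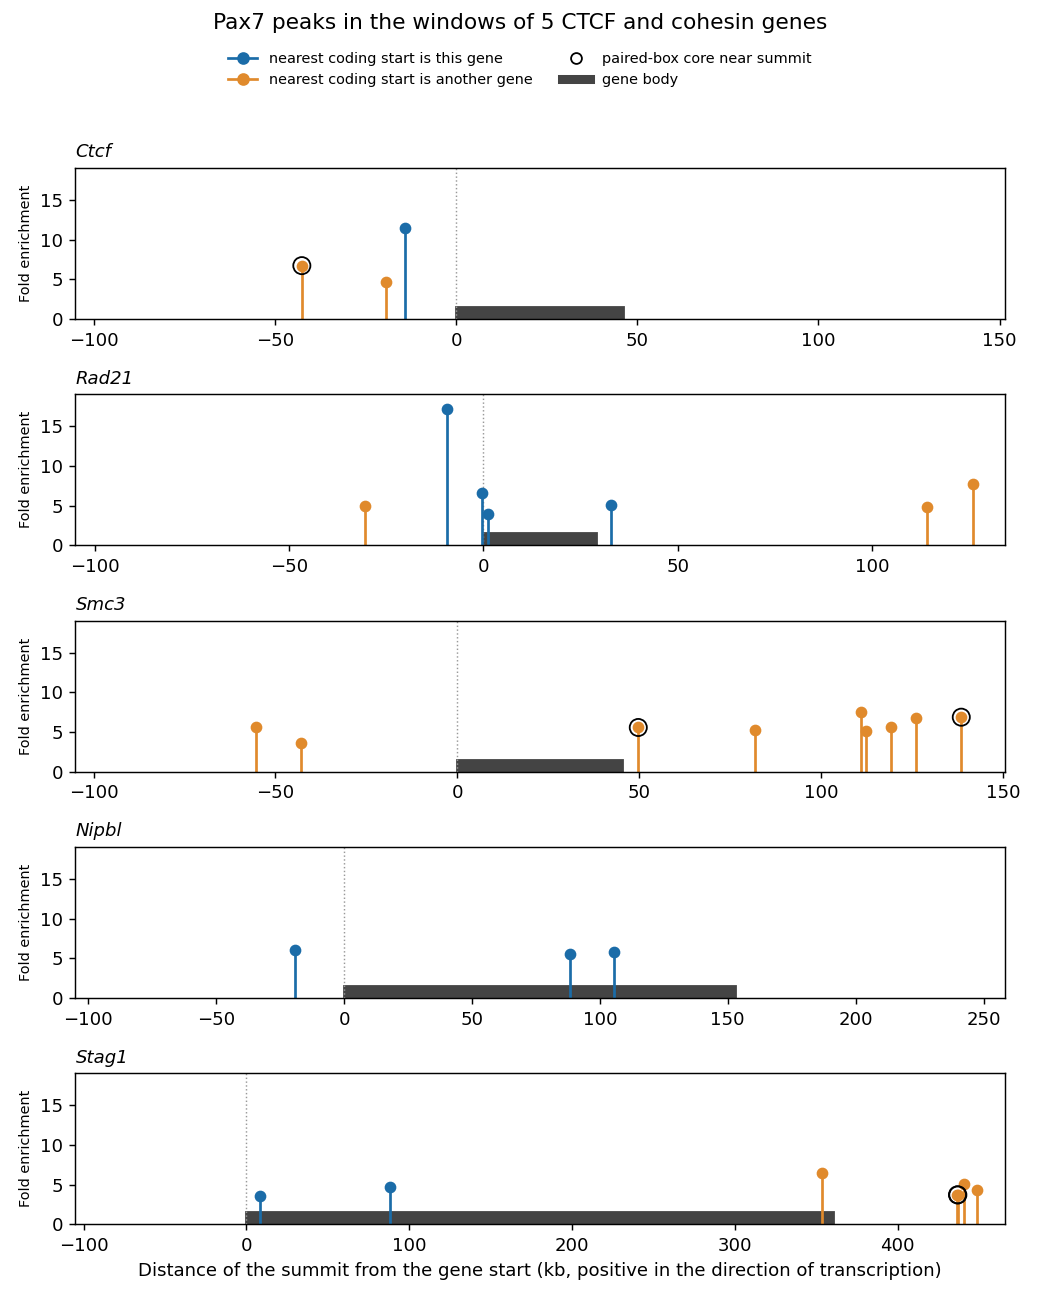
Each panel is the window of 1 gene, with the distance of every Pax7 summit from the gene start in kb on the x axis and its fold enrichment on the y axis. The dark bar marks the gene body, blue stems mark peaks whose nearest coding gene start (5′ end) is that gene and orange stems mark the others, and open circles mark peaks with the paired-box core within 50 bp of the summit. The tallest stem, 17.1-fold, stands 9.41 kb upstream of Rad21, and the stems downstream of Smc3 and Stag1 are orange.

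All 5 genes had at least 1 Pax7 peak in their window. This is a weak distinction, since 75.2% of the 22350 annotated protein-coding genes on chromosomes 1 to 19 and X also did. A summit inside the gene was found for 3 of the 5 (Rad21, Nipbl and Stag1), against 22.3% of coding genes, and a summit within 1 kb of a start of the gene for 1 of the 5 (Rad21), against 14.1%. The 5 genes were long, with a median length of 46.4 kb against 15.4 kb over all coding genes, and a longer gene gives a longer window. Counted per length, the windows held 17.7 peaks per Mb together. The median over the windows of all coding genes was 9.16 per Mb. Whole autosomes, which are not limited to gene windows, held 8.23 per Mb. A pooled density over all coding gene windows was not computed.

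The density separated the 5 genes. The Smc3 window had 36.7 peaks per Mb and the Rad21 window 30.5, which placed them above 97.9% and 95.7% of coding genes. Stag1 with 12.5, Ctcf with 12.2 and Nipbl with 8.49 peaks per Mb stood above 62.2%, 61.5% and 46.7% of coding genes, whose median was 9.16 per Mb. The last 3 were thus within the middle range, the upper quartile of coding genes being at 16.4 per Mb. For Rad21 and Smc3 the density also exceeded that of their own chromosomes, at 8.30 peaks per Mb for chromosome 15 and 11.02 for chromosome 19.

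**Figure D2:**
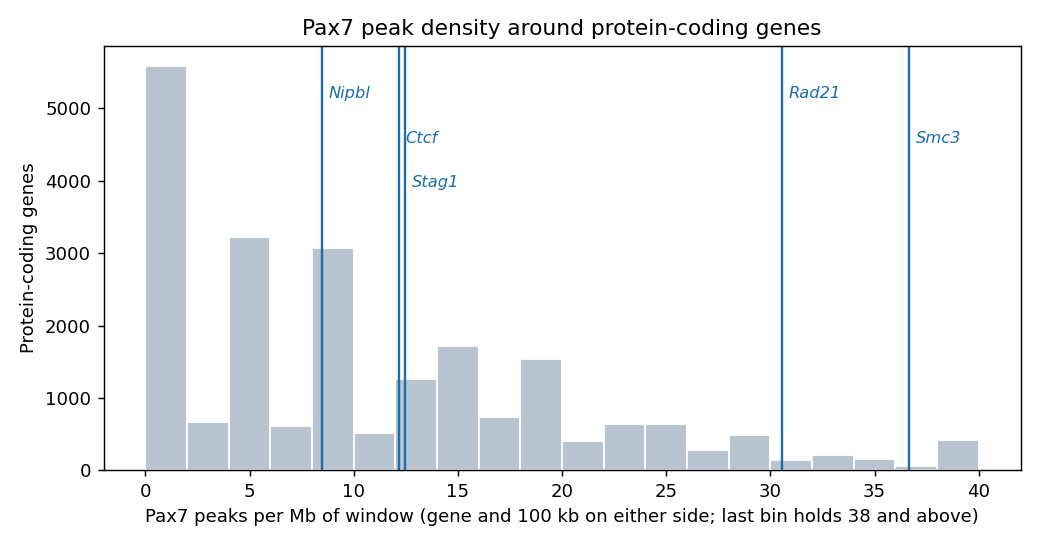
The bars count protein-coding genes by Pax7 peaks per Mb of window on the x axis, and the lines mark the 5 genes. Nipbl, Ctcf and Stag1 lie between 8.49 and 12.5 per Mb, and Rad21 and Smc3 lie at 30.5 and 36.7 per Mb in the sparse right part of the distribution.

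Rad21, which closes the cohesin ring and is the subunit cut at anaphase, lies on the minus strand of chromosome 15 (chr15:51794151-51823306). A group of 3 Pax7 peaks surrounded its start. The strongest, chr15:51832384-51832907, was intergenic and 9.41 kb upstream, with 17.1-fold enrichment at a −log10 q of 101, and its width of 524 bp was the widest of the 29. It ranked 113 of 20579 by fold enrichment, above 99.5% of all peaks. Of coding genes, 98.8% had a weaker strongest peak in their window or none.

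The promoter peak of Rad21, chr15:51823263-51823688, covered the annotated start itself, and its summit was 235 bp upstream with 6.63-fold enrichment. The third peak of the group, chr15:51822085-51822269, lay in intron 1, 1075 bp downstream of the start, with 4.00-fold enrichment. Going upstream, the value rose from the intronic peak to the promoter peak and again to the distal one, and the promoter peak exceeded 73.6% of all Pax7 peaks while the intronic one exceeded 16.4%. Neither promoter-near peak held any of the Pax motifs searched within 50 bp of its summit. Another peak, 3.57 kb beyond the 3′ end of Rad21 (chr15:51790439-51790676), had 5.12-fold enrichment and was also nearer to the Rad21 start than to that of any other coding gene.

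The remaining peaks of the Rad21 window lay nearest to the starts of its neighbours. A pair lay at the promoters of Utp23, which acts in ribosome biogenesis, and Eif3h, a subunit of a translation initiation factor, and each covered the start of its gene. These peaks, chr15:51708792-51709191 and chr15:51697001-51697410, had 4.88-fold and 7.75-fold enrichment. The last, chr15:51853621-51853845 with 4.96-fold enrichment, was 30.4 kb upstream of Rad21 and 17.9 kb from the start of Aard. All 3 were thus far below the peak 9.41 kb upstream of Rad21.

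Ctcf lies on the plus strand of chromosome 8 (chr8:108160468-108206822) in a gene-dense stretch, with 12 other coding genes reaching into its window. All 3 Pax7 peaks were upstream, and none was found over the 146 kb from its start through the gene to the far end of the window. The nearest, chr8:108146271-108146547, was 14.1 kb upstream of Ctcf and 316 bp past the 3′ end of Fam65a, with 11.5-fold enrichment at a −log10 q of 43.7. It ranked 811, above 96.0% of all peaks, and it was the only 1 of the 3 whose nearest coding start was that of Ctcf. The next, chr8:108140869-108141158, was in coding exon 12 of Fam65a with 4.64-fold enrichment. The third, chr8:108117783-108118043, was intergenic, 42.5 kb upstream of Ctcf and 7.81 kb from Gm8841, with 6.72-fold enrichment. The Ctcf promoter thus had no peak in this list, although the RefSeq promoter sequence of Ctcf (GRCm38.p6) held the core GTCACG at 2 positions, a sequence found in 8.22% of 32851 such promoters. The RefSeq promoters of Stag1 and Smc3, which also had no peak within 1 kb of a start, held the core at 0 positions.

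Rad21 and Ctcf were the only 2 of the 5 genes with a window peak at or above 10-fold, a level reached in the windows of 15% of coding genes and by 6.99% of all Pax7 peaks. In each, this strongest peak was intergenic, upstream of the gene and within 15 kb of its start. It was also the peak nearest to the start for Ctcf, while for Rad21 the promoter peak was nearer.

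Nipbl, the cohesin loader, spans 153 kb on the minus strand of chromosome 15 (chr15:8241225-8394463). Its window held 3 peaks, and for all of them the 5′ end of Nipbl was the nearest of any coding gene. By annotated transcript starts this held for 2 of the 3, since the exonic peak was 91.8 kb from a start of 2410089E03Rik and 106 kb from that of Nipbl. They had nearly the same height, at 6.06-fold for the intergenic peak 19.2 kb upstream (chr15:8413610-8413790), 5.58-fold in intron 9 (chr15:8306200-8306433) and 5.76-fold in coding exon 12 of 47 (chr15:8288775-8289173). These exceeded 66.1%, 57.8% and 60.8% of all peaks. No peak lay within 19 kb of the start, and none held any of the Pax motifs searched near the summit. The summit windows of the intergenic and intronic peaks were poor in G and C, at 36.6% and 37.6%, while that of the exonic peak was at 52.5%, beside a median of 45.5% over all peaks.

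Stag1, which helps cohesin stay on chromatin, is the longest of the 5 at 361 kb (plus strand, chr9:100498217-100858964). Inside the gene there were 3 peaks, and upstream of it there was none. The first, chr9:100506557-100506756, was 8.37 kb into the gene in an intron of an annotated Stag1 transcript, with 3.55-fold enrichment, the lowest value of the 29. The second, chr9:100586183-100586381, was 88.1 kb into the gene in intron 1 with 4.64-fold enrichment. The third, chr9:100851962-100852248, had its summit in coding exon 30 of 34 and reached 6.44-fold, above 71.3% of all peaks. Within Stag1 the strongest binding was thus close to the 3′ end and not to the start.

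The other 4 peaks of the Stag1 window were clustered at Pccb, the gene for the beta subunit of propionyl-CoA carboxylase. A pair with summits 222 bp apart, 76.1 and 76.3 kb past the end of Stag1, stood at the Pccb promoter (chr9:100934927-100935119 and chr9:100935176-100935351), each with 3.70-fold enrichment. Upstream of Pccb followed peaks of 5.06-fold and 4.29-fold, with summits 3.88 kb and 11.4 kb from its start (chr9:100939105-100939349 and chr9:100946608-100946788). As a group the Stag1 window had the lowest median of the 5, at 4.29-fold, and 2 of its 7 peaks reached 5-fold.

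Smc3, a long arm of the cohesin ring, lies on the plus strand of chromosome 19 (chr19:53674886-53720323). No peak lay inside it and none within 42 kb upstream of its start. The closest to the gene, chr19:53724507-53724713, was 4.30 kb past its 3′ end with 5.56-fold enrichment, and held the core GTCACG on both sides of the summit, 22.5 and 34.5 bp away. It was 6.78 kb from an annotated Smc3 transcript start and 27.2 kb from the start of Rbm20, while the 5′ end of Smc3 was 49.7 kb away. That transcript start lies inside Smc3 near its 3′ end. All annotated transcripts of coding genes were used, whether or not the transcript itself is coding. The other 8 stood nearer to neighbouring genes. Upstream, a pair at chr19:53619433-53619672 and chr19:53631879-53632085 had 5.62-fold and 3.60-fold enrichment, with summits 15.9 and 28.4 kb downstream of the start of Dusp5, a nuclear phosphatase of the ERK kinases.

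Downstream, 6 of the 9 peaks lay in intron 1 of Rbm20, a splicing regulator of titin in striated muscle. Their fold enrichments, in order along Rbm20, were 5.25, 7.49, 5.14, 5.62, 6.69 and 6.85, with summits between 4.89 and 61.6 kb from its start. The pair with 7.49-fold and 5.14-fold enrichment (chr19:53785632-53785953 and chr19:53787198-53787383) had summits 1.49 kb apart. The high density of the Smc3 window therefore came mainly from a row of intronic Rbm20 peaks. Of the 9 peaks, 8 reached 5-fold, but none reached 10-fold, and 66.7% of coding genes had a weaker strongest peak in their window or none. With the window cut to 25 kb on either side, Smc3 kept 1 peak.

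The peaks just inside and just outside the 100 kb limit show what the window took in. The outermost peak inside was 93.1 kb from Smc3 with 6.85-fold enrichment, whereas the first peak outside, 117 kb away and also nearest to Rbm20, had 16.6-fold enrichment. For Rad21 the outermost peak inside was the Eif3h promoter peak, 96.9 kb away, and the first outside was 139 kb away with 5.55-fold enrichment. For Nipbl the first outside was 121 kb away with 7.95-fold, for Ctcf 159 kb with 5.40-fold and for Stag1 293 kb with 3.71-fold enrichment.

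Over all 29 peaks, the median fold enrichment was 5.56 and the values ran from 3.55 to 17.1, beside a median of 5.22 and a span of 1.60 to 28.0 for the whole list. At least 5-fold enrichment was reached by 19 of 29 (65.5%), against 54.9% of all peaks, and at least 10-fold by 2 of 29 (6.90%), against 6.99%. The shift of the median was small beside the spread of all peaks, whose quartiles were 4.32 and 6.74, and the 95% interval of the median of the 29, from binomial ranks, ran from 4.88 to 6.44. Peaks were 176 to 524 bp wide, with a median of 240 bp against 252 bp over all peaks.

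**Figure D3:**
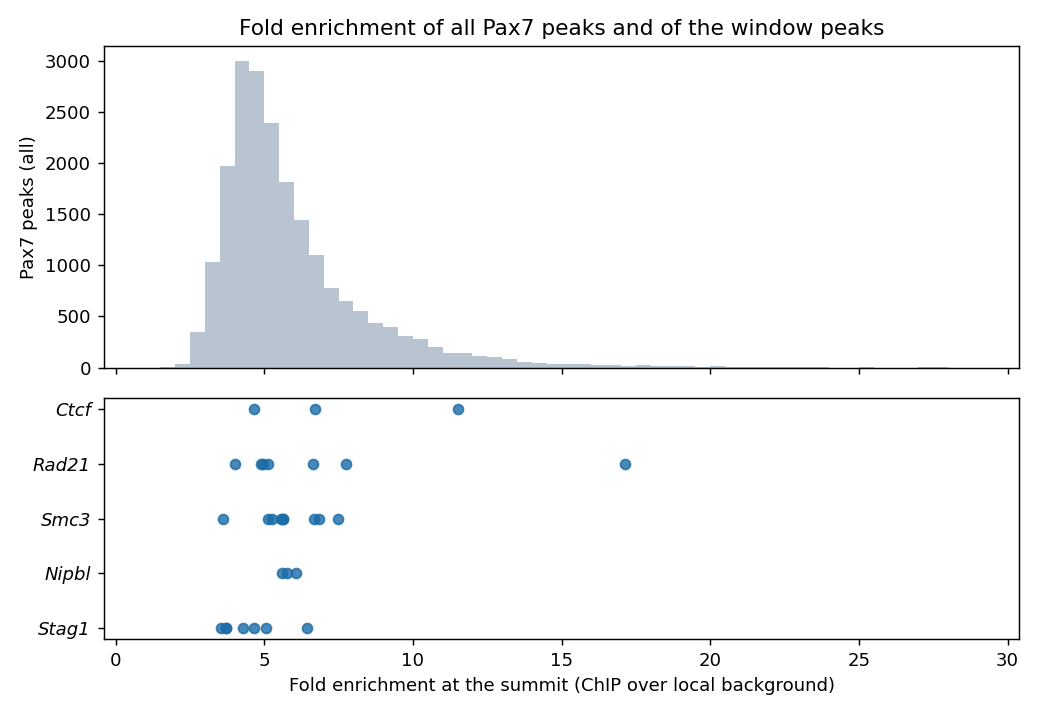
The upper panel counts all Pax7 peaks by fold enrichment on the x axis, and the lower panel shows each of the 29 window peaks as a point in the row of its gene. Most points lie between 3.55 and 7.75 under the bulk of the distribution, and 1 point each of Ctcf (11.5) and Rad21 (17.1) lies in its tail.

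A summit within 1 kb of an annotated transcript start was found for 5 of the 29 peaks (17.2%, 95% Clopper-Pearson interval 5.85% to 35.8%), against 16.3% of all peaks. These were the promoter peaks of Rad21, Utp23 and Eif3h and the pair at Pccb, so that a single one was at a gene of the architecture machinery. Of the rest, 11 lay between genes, 10 in introns and 3 in exons. The exonic share of 10.3% (2.19% to 27.4%) stands beside 2.55% of all peaks, and the 3 exonic summits, in Nipbl, Stag1 and Fam65a, were all in coding sequence. The intervals cover counting error only. By 5′ ends of coding genes, 10 of the 29 peaks (34.5%) lay nearest to 4 of the 5 genes. Over all coding genes, 38.5% were the nearest to at least 1 summit. Of the 10, 4 were at Rad21, 3 at Nipbl, 2 at Stag1 and 1 at Ctcf. The other 19 lay nearest to neighbours, led by Rbm20 with 7 and Pccb with 5. By annotated transcript starts, the number was again 10, but over all 5 genes. Smc3 gained the peak past its 3′ end and Nipbl lost the exonic one. The nearest start describes position and does not give the target of a peak. In its maps of promoter contacts, the paper found Pax7 enhancers with distal targets beyond their nearest promoters.

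Pax7 reads DNA with a paired domain, for which GTCACG is the core, and with a homeodomain. The core was present within 50 bp of the summit on either strand in 5 of the 29 peaks (17.2%, 95% Clopper-Pearson interval 5.85% to 35.8%), against 11.3% of all peaks and 1.32% of windows of the same width 500 bp to either side of all peaks. The interval covers the share over all peaks. The share depended on the distance allowed, since within 25 bp the core was in 1 of 29 (3.45%), against 7.61% of all peaks. The longer paired-box plus homeobox sequence ATTAGTCA and the homeodomain dimer, TAAT and ATTA with 3 bases between them, were each found in 0 of 29, which allows a share of up to 11.9% by the same interval, against 3.06% and 1.05% of all peaks. Any of the 3 was thus present in 5 of 29, beside 15% of all peaks. The dimer was searched with the 3-base spacing only. The Eif3h promoter peak held TAATTGATTA at its summit, with a shorter spacing, and is not counted here. How often that spacing occurred in the whole list was not computed. A control hexamer, GCACTG, was in 2 of 29 (6.90%), and in 7.12% of all peaks.

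The 5 peaks with the core were the outermost Ctcf peak, the peak 4.30 kb past Smc3, the farthest Rbm20 peak and the pair at the Pccb promoter. By the 5′ ends of genes, the nearest coding start was that of a neighbour for each of these. Thus 0 of the 10 peaks nearest to one of the 5 genes held the core. By annotated transcript starts, the peak past Smc3 was nearest to Smc3, through a start near its 3′ end, so that 1 of 10 did. The share over all peaks was 11.3%, and 10 peaks are too few to show a difference from it. The fold enrichment of the 5 peaks with the core ranged from 3.70 to 6.85. The strongest peaks of the Rad21 and Ctcf windows were among the 24 without it. In the Ctcf peak and in 1 of the Pccb pair the core overlapped a match to the AP-1 sequence TGANTCA.

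The peak 9.41 kb upstream of Rad21 lacked GTCACG but held the variant TTCACG at 3 positions, 18.5, 34.5 and 40.5 bp from the summit, as the capitals in its sequence show. The variant was searched only after this sequence had been seen. At least 1 copy was present in 5.33% of all peaks and in 1.33% of flanking windows, at least 2 copies in 20 of 20579 peaks, and at least 3 copies in this peak alone. None of the other 28 window peaks held it. Since the search was prompted by the peak itself, these counts describe the sequence and are no test.

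Sequences of other factors were counted in the same way. The E-box CAGCTG was present in 7 of 29 peaks (24.1%, 95% Clopper-Pearson interval 10.3% to 43.5%), against 16.3% of all peaks and 4.73% of flanks. It lay 6.5 bp from the summit in the strongest peaks of both Rad21 and Ctcf, with a further copy 32.5 bp away at Ctcf, and 4.5 bp from the summit of the 7.49-fold Rbm20 peak. AP-1 matches were in 3 of 29 against 7.22%, the Runx sequence TGTGGT in 2 of 29 against 10.1%, and the Tead sequence GGAATG in 1 of 29 against 11.3% of all peaks. A core of the CTCF motif (CCA, AG and GGC, each 2 bases apart) was in 1 of 29 against 1.12% of all peaks. That peak was the farthest in Rbm20 (chr19:53813288-53813601), and the match was 2.5 bp from its summit. The bases between these parts were left free, so the match is to part of the motif only. All of these intervals are wide at 29 peaks, and no difference from the whole list was shown for any of these sequences.

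**Figure D4:**
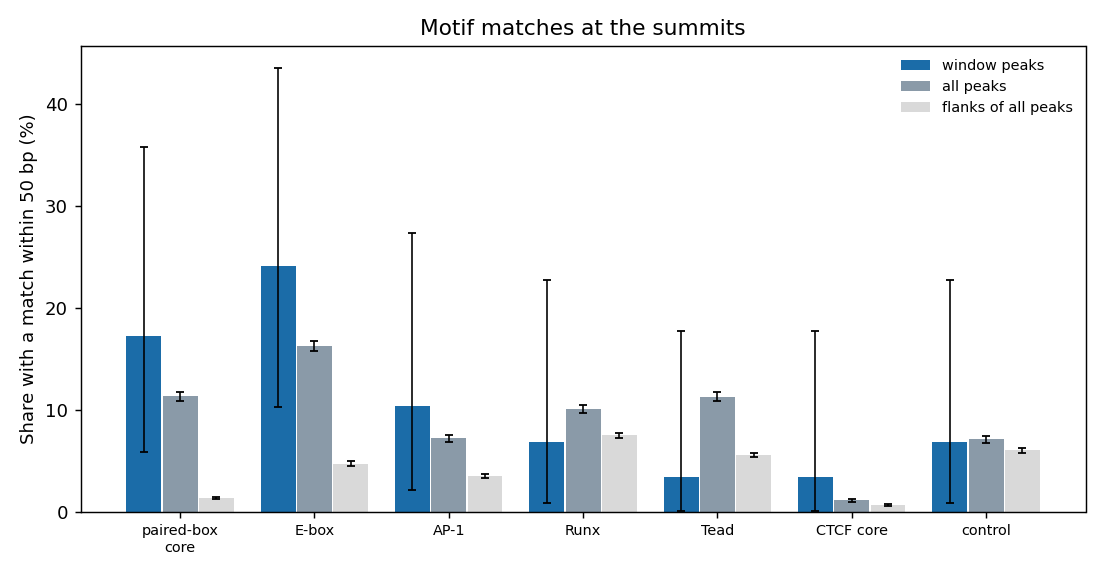
Bars give the share of summit windows with a match within 50 bp, in percent, for the 29 window peaks, for all 20579 peaks and for the 41158 flanking windows, and error bars are 95% Clopper-Pearson intervals. The paired-box core and the E-box stand above the flanks in both peak groups, at 17.2% and 24.1% of the window peaks, and the intervals of the window peaks span the values of all peaks for all 7 motifs.

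To set the 5 genes beside the rest of the machinery, the same windows were drawn around 34 further genes of cohesin, condensin and chromatin architecture. Of these, 28 (82.4%) had at least 1 Pax7 peak in the window, close to the 75.2% of all coding genes, and the median was 2 peaks with a maximum of 5, against a median of 7 for the 5 genes. Their median density of 8.84 peaks per Mb was near the 9.16 of coding genes. A best peak of at least 10-fold was found for 8 of the 34, against 15% of coding genes. Rad21 and Smc3 were thus above every one of the 34 in count and in density, the highest density among which was 24.2 peaks per Mb at Cdca5. This ranking holds for the 100 kb windows only. In these, 6 of the 9 Smc3 peaks lay in Rbm20, and 4 of the 7 Rad21 peaks were nearest to Rad21. With 25 kb on either side Smc3 had 1 peak, and the 34 genes were not counted at that size.

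Among the partners of the 5 genes in the cohesin core, Smc1a and Stag2 had no Pax7 peak in the window, and Mau2, the partner of Nipbl, had 2, both outside the gene. Smc1a and Stag2 are on the X chromosome, where Pax7 peaks were sparse at 1.46 per Mb against 8.23 on the autosomes, and 34.3% of X-linked coding genes against 77.0% of autosomal ones had a peak in the window. Hdac8, the X-linked deacetylase of Smc3, had 2 peaks inside the gene. Among the genes for cohesin release and acetylation, Pds5a, Pds5b, Esco1 and Cdca5 had 1, 2, 3 and 5 peaks, while Wapal and Esco2 had none. Of the condensin genes, 7 of 8 had a peak, Smc2 being the exception, and the highest value there was 6.98-fold.

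A summit within 1 kb of a start of the gene was found for 10 of the 34 (29.4%), beside 14.1% of coding genes. Adnp, a zinc finger protein of chromatin remodelling, had the strongest at 10.96-fold, 291 bp upstream of its start. Stag3, the meiotic relative of Stag1, followed with 10.6-fold, 43 bp downstream of its start. The core GTCACG was near the summit in 3 of the 10, at Stag3, Ncapg and Smc6, beside 11.3% of all peaks. Its share over all peaks near a start was not computed, and 10 peaks are too few to show a difference. The other 8 (Zfp143, Cdca5, Ncapg, Smc6, Ncaph2, Sgol2, Yy1 and Espl1) ranged from 3.02-fold to 6.75-fold. At Cdca5, Zfp143 and Smc6 the nearest 5′ end of a coding gene was that of a neighbour (Zfpl1, AA474408 and Gen1). The promoter peak of Rad21, at 6.63-fold, stood within this range.

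**Figure D5:**
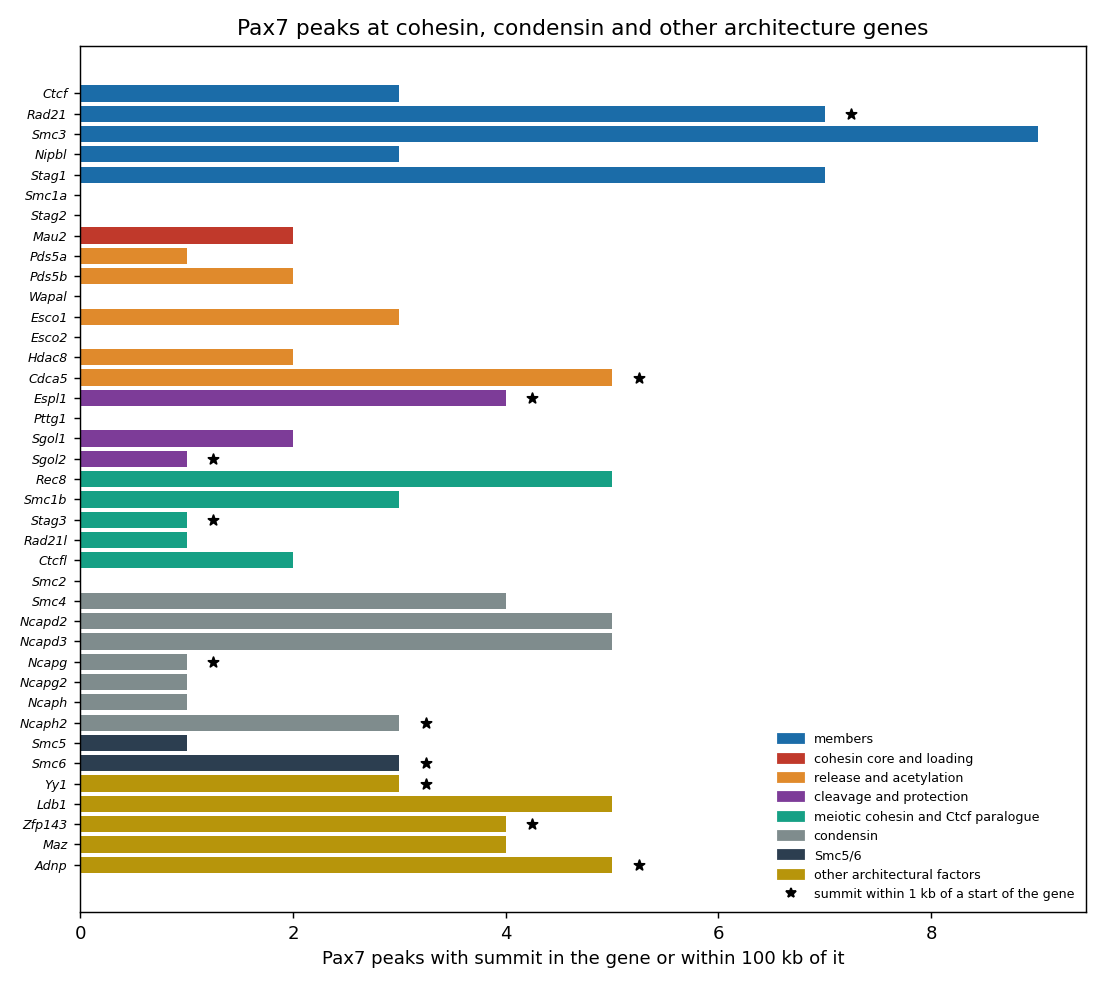
Bars give the number of Pax7 peaks in the window of each gene, with the 5 genes on top and the 34 others below in colours by group, and stars mark genes with a summit within 1 kb of a start. Smc3 (9), Rad21 (7) and Stag1 (7) have the longest bars, and the bars of the other genes end at 5 or below.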

How the data were processed

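Pax7 ChIP-seq of 2 ChIP and 2 input libraries was used as 1 deposited peak list. Per the methods, the authors used bowtie2 (2.3.4.1) for alignment to mm9, discarded multiply mapped reads and duplicates (Picard 1.88), pooled the replicates, and ran MACS2 (2.1.1) with q limited to 0.01. Fold enrichment is the ratio of ChIP to local background that the authors computed at each summit. The deposited −log10 q served to describe and filter peaks, and the deposited score (10 times that value, whole part) was only read. Read depth is not given in the list. It has 0 per-sample columns that lack a sample.

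Summits were placed on the GENCODE annotation of NCBIM37, and coordinates are 1-based. A gene start is the 5′ end of the annotated gene, and the 1 kb class used all annotated transcript starts. Exon and intron numbers refer to the longest coding transcript. Promoter sequences were from RefSeq (GRCm38.p6), where 3 of the 5 genes matched (not Rad21 or Nipbl). Motifs were searched on both strands and counted when their centre was within 50 bp of the summit. Counting and motif search were tested on simulated data. No test was run, since a pooled list has no replicates. The 5 genes, the other gene lists and the motifs were chosen with earlier results of these data known, except TTCACG, which was added after the sequences were seen. By rule, all peaks of a window with up to 10 were named (otherwise the top 3 and those within the gene or 5 kb of its start), with the gene that holds each and the nearest coding start, and of the 34 other genes those with a summit within 1 kb of a start or the 3 highest counts. Smc1a, Stag2, Mau2, Hdac8, Pds5a, Pds5b, Esco1, Esco2, Wapal and Smc2 fall outside this rule and were chosen after their values were seen. Software was samtools 1.23.1, pysam 0.24.0, Python 3.11.15 with scipy 1.17.1, pandas 2.3.3 and numpy 2.4.6, and for plots matplotlib 3.10.9. Alternatives were other window sizes, stricter peaks, merging, overlap, motif widths and, added after the values were seen, transcript starts for the nearest gene.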

Additional observations from a re-analysis of the deposited data

How the results depend on the processing

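Alternatives were applied 80 times, and 60 of them left the value within 1.5 times (counts) or within its 95% interval (shares and the median), and 20 moved it. All 5 genes kept at least 1 peak under every alternative tried. The share of coding genes with a peak was computed only for the 100 kb window, at 75.2%. The alternatives therefore do not set the 5 genes apart from other genes. The total of 29 fell to 13 with 25 kb on either side, 17 with 50 kb, 16 with 100 kb around the start alone and 19 at a fold enrichment of at least 5, and rose to 48 with 200 kb. At 25 kb, Rad21 had 4, Smc3 1 and Stag1 3 peaks, and at 50 kb Smc3 and Stag1 had 3 each. At 200 kb, Ctcf had 8, Smc3 17 and Nipbl 7. Around the start alone, Smc3 had 4 and Stag1 2. At a fold enrichment of at least 5, Rad21 had 4 and Stag1 2. These shifts follow from the size of the window or the stricter list. The share with the core GTCACG, and with any Pax motif, was 3.45% within 25 bp of the summit in place of 17.2%. The share within 1 kb of a start, 17.2%, became 5.88% with 50 kb on either side. It was 10.5% at a fold enrichment of at least 5, and the share within 5 kb of a start was 31.0%. These counted as not moved because the interval at 29 peaks, 5.85% to 35.8%, is wide. With any annotated transcript start in place of the 5′ end of the gene, chosen after seeing the data, the core peaks nearest to one of the 5 genes were 1 in place of 0. No paired analysis was possible because the peaks were called on merged libraries. Counting intervals at 29 peaks are wide, and the reads behind a peak are not known.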
